A study of Mus musculus with 9 samples.

Results

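The genes described here encode proteins that the liver secretes into the blood: carriers of hormones, vitamins and haem, apolipoproteins, coagulation factors, complement components and protease inhibitors. They were taken by gene symbol, and every probe carrying the symbol was kept. All 49 genes had a probe, 81 probes in all among the 45281 of the array. Of these, 80 probes of 48 genes were detected widely enough to be tested, among 19425 tested probes in all. The only probe of Fgb, the fibrinogen beta chain, was detected on 0 of 9 arrays (raw intensity 65.1 to 99.3) and gave no value. The tested probes comprised 8 of 6 carriers, 12 of 8 apolipoproteins, 26 of 13 coagulation genes, 17 of 12 complement genes and 17 of 9 inhibitors.

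Transcripts of mouse liver were measured on Illumina bead arrays, on which probes held on beads bind labelled RNA and brightness is read as an intensity. PV samples were cut by laser capture microdissection, in which chosen cells are lifted from a section under the microscope, from the glutamine synthetase subcompartment, the hepatocytes that line the central vein. NPV samples were cut from zones 1+2, the remaining hepatocytes towards the portal tract, and SC samples were the whole tissue scraped off a slide. Each group had 3 arrays, numbered 1, 2 and 3 in the sample labels. No group carried a treatment or allele in the labels. The sources used here do not give the strain, sex, age or number of mice, or how the PV cells were recognised. No label links a sample to an animal, so the spread between the 3 samples of a group may be technical. The p-values reflect this spread, pooled over the 3 groups. Where the sample number was taken as a block, they reflect what is left of it after the number is removed. In such tissue samples, fewer cells of a type and less RNA per cell cannot be told apart.

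Hepatocytes make most plasma proteins, translate them at the rough endoplasmic reticulum and release them continuously, so their transcripts are among the most abundant of the liver. Many enzymes of the liver lobule are made mainly near the portal tract or mainly near the central vein, an arrangement called zonation. For secreted proteins the arrangement is less uniform, and several acute-phase and complement genes are also made by other cells. Hepatocyte transcription of many of these genes depends on factors such as HNF1, HNF4 and C/EBP bound close to the start of the gene.

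The DNA directly before the gene start is shown first, because a hepatocyte motif recurs there. The RefSeq table (GRCm38.p6) held 44 start sites of 39 of the 49 genes, and 250 bases before each were searched on both strands. The HNF1 half-site GTTAAT, or ATTAAC on the other strand, stood before 11 of the 44 starts (25%), against 6.43% of 32851 start sites of all genes. The HNF4 sequence CAAAGTCCA stood before 0 of the 44 and 0.384% of all. The TCF/LEF sequence ATCAAAG, read by the Wnt pathway that acts around the central vein, stood before 2 of the 44 (4.55%) and 3.21% of all. A match is a description of the letters and not evidence of binding, and the search gives no result for start sites outside the table. In 7 genes the half-site began within 70 bases of the start, and the last 80 bases before the start of these are printed 5′ to 3′ on the strand of the gene, with the half-site in capitals.
Alb, chr5:90460790-90460869, plus strand: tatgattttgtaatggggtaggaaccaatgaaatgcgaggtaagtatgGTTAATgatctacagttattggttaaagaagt
Fga, chr3:83026073-83026152, plus strand: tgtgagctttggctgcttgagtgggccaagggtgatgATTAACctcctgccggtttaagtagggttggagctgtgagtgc
Fgb, chr3:83049864-83049943, minus strand: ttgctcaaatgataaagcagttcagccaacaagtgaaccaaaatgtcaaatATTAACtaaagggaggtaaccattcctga
F13b, chr1:139501627-139501706, plus strand: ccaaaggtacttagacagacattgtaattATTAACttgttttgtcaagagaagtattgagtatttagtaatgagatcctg
C4bp, chr1:130661619-130661698, minus strand: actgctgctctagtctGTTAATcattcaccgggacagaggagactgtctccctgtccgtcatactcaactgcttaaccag
Serpina1a, chr12:103863620-103863699, minus strand: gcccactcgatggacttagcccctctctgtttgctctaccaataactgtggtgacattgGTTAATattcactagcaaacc
Itih1, chr14:30943290-30943369, minus strand: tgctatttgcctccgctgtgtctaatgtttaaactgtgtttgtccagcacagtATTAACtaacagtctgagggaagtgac
The half-site began from 21 bases (Serpina1a) to 64 bases (C4bp) before the start. These 7 genes span carriers, coagulation, complement and inhibitors. None of their tested probes passed the test between any groups, but neither did any other of the 80 probes. Of all tested probes 0.0103% passed the main test between PV and NPV, and 0% in PV against SC and in NPV against SC. No link between the half-site and the groups can therefore be read from this. The same stretch follows for 3 other genes, chosen after their values were seen: C9 and Mbl1 for PV against NPV, and Apoa4 for the sample numbers. None of these 3 stretches held any of the motifs, and most start sites lacked the half-site, which stood before 11 of 44. Alb, printed above with a half-site, had the lowest PV minus NPV of the 80 probes (-0.52), with a dim probe. No split between genes with and without the motif can be read from these stretches.
C9, chr15:6445266-6445345, plus strand: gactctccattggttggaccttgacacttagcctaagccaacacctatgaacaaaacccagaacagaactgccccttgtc
Mbl1, chr14:41151376-41151455, plus strand: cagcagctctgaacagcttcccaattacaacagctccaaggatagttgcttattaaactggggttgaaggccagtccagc
Apoa4, chr9:46240764-46240843, plus strand: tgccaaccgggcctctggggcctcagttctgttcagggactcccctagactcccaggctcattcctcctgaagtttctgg

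Signals near the upper end of the scanner range matter here, because a probe close to that end cannot rise much further. The highest raw intensity of any probe on any array was 70935, and a probe at or over 75% of it (53201) was called near the top. Of the 81 probes, 16 probes of 11 genes were near the top on at least 1 array: Ttr, Ahsg and Hpx among carriers, Apoa1, Apoa2, Apoc1 and Apoc3 among apolipoproteins, Fga and Kng1 in coagulation, C3 in complement and Serpina1a among inhibitors. Apoa1, the main protein of high-density lipoprotein, was near the top on all 9 arrays, where its raw intensities were 54091, 69408 and 69381 in PV, 54460, 68108 and 68649 in NPV and 56696, 69890 and 69573 in SC. Ttr, which carries thyroxine and retinol-binding protein, read 42650, 70018 and 69957 in PV, 44052, 69281 and 69518 in NPV and 45538, 69819 and 69430 in SC. In both genes the arrays numbered 1 read lower than the others in every group, and the arrays numbered 2 and 3 of each gene lay within a narrow band. The number of near-top probes was 2, 2 and 3 on the arrays numbered 1 of PV, NPV and SC. It was 16, 13 and 13 on the arrays numbered 2, and 12, 11 and 12 on those numbered 3. Arrays numbered 1 were dimmer throughout, with a highest raw intensity of 57673 to 63572, against 70015 to 70935 on the other 6 arrays.

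**Figure D1:**
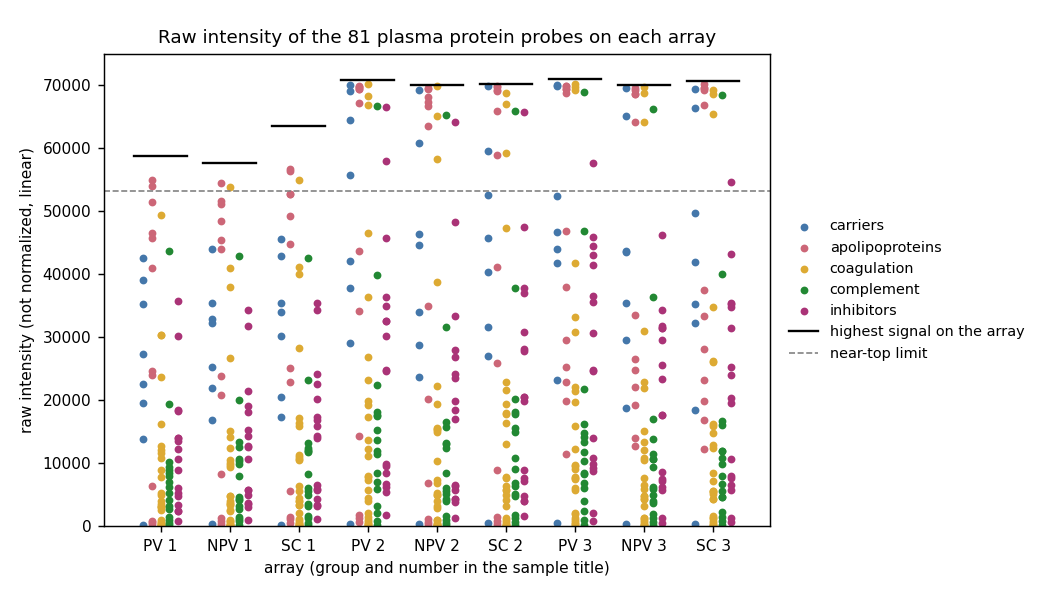
Raw intensity (linear, not normalized) of each of the 81 probes on the 9 arrays, coloured by role, with a black bar at the highest signal of the array and a dashed line at the near-top limit of 53201. On the arrays numbered 2 and 3, between 11 and 16 of the 81 probes lay above the line, and on those numbered 1 only 2 or 3.

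The arrays as a whole gave the following context. Between 16819 and 18721 probes were detected per array, 37.1% to 41.3%. Glul, which encodes glutamine synthetase and checks the labels, read 13.69, 12.76 and 12.83 (log2) in PV, 11.04, 10.89 and 10.43 in NPV and 11.53, 11.65 and 11.38 in SC (PV minus NPV 2.30, SE 0.27; limma adjusted p = 0.0863, and 0.00149 with the sample number as a block). Across 22 settings the limma adjusted p of Glul was 1.17e-05 to 0.387. Hepatocyte markers were detected on every array, with summed normalized intensities of 145302 to 176344. Their median PV minus NPV was -0.060 on the log2 scale, with 8 of 13 probes below 0. Pericentral hepatocyte markers had a median PV minus NPV of 1.36 on the log2 scale (12 of 13 probes above 0) and periportal ones -0.58 (14 of 14 below 0). Markers of the central vein endothelium were also higher in PV, with a median of 1.38 and 6 of 6 probes above 0, and summed normalized intensities of 680 to 2565 in PV against 392 to 781 in NPV. Stellate cell and fibroblast markers had a median of 0.33, with 13 of 15 probes above 0, and 0.22 with 13 of 15 in PV minus SC, and sums of 13387 to 20942 in PV against 12923 to 13905 in NPV. Their part in the differences below was not tested.

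The first comparison asked how the transcripts of plasma proteins were spread between the perivenous sheath and zones 1+2. None of the 80 probes passed the threshold of 0.05 for the limma adjusted p, with or without the sample number as a block. Of all 19425 tested probes, 0.0103% passed without the block and 0.329% with it. At an unadjusted p under 0.05 there was 1 probe, and 8 with the block, against 405 and 1783 of all probes. The log2 difference, PV minus NPV, had a median of -0.066 over the 80 probes and ran from -0.52 to 0.32, and 62 of 80 (77.5%) lay below 0. Over all tested probes the median was -0.0044 and 51% lay below 0. Over the 13 probes of general hepatocyte markers the median was -0.060, close to that of the members, and 61.5% lay below 0. Within the numbered pairs the members' median was -0.13 for number 1, -0.049 for number 2 and -0.035 for number 3. All 3 numbers were lower in PV for 27 probes (33.8%, against 17.7% of all probes), and all 3 were higher for 7 (8.75%, against 15.2% of all probes). The members' median was -0.032, -0.040 and -0.12 when PV array 1, 2 or 3 was left out. It was -0.14 when NPV array 2 was left out and -0.029 when NPV array 3 was. The lean towards lower values in PV was small in size and depended on the scale. With each array shifted to a common median instead of quantile normalization, the members' median turned to 0.10, while the median of all probes moved to 0.28, which left the members at -0.18 relative to all probes.

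For probes below the near-top limit, the intervals show what size of difference these arrays could hide. The counts here include the 16 near-top probes. For those the scanner's range may limit a difference, so a narrow interval need not bound the difference in RNA. For 79 of the 80 probes the 95% interval of PV minus NPV lay within 1 log2 unit of 0 when the sample number was a block (98.8%, against 97% of all probes), and for 68 of 80 without it (85%, against 78.9% of all probes). The exception with the block was the probe of Alb (-1.07 to 0.036). Without the block the widest intervals were those of the Apoa4 probes, up to -4.50 to 3.75, and of a Serpinc1 probe (-3.28 to 3.37). The median SE of the 80 probes was 0.175, and differences smaller than the intervals allow could not be detected.

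**Figure D2:**
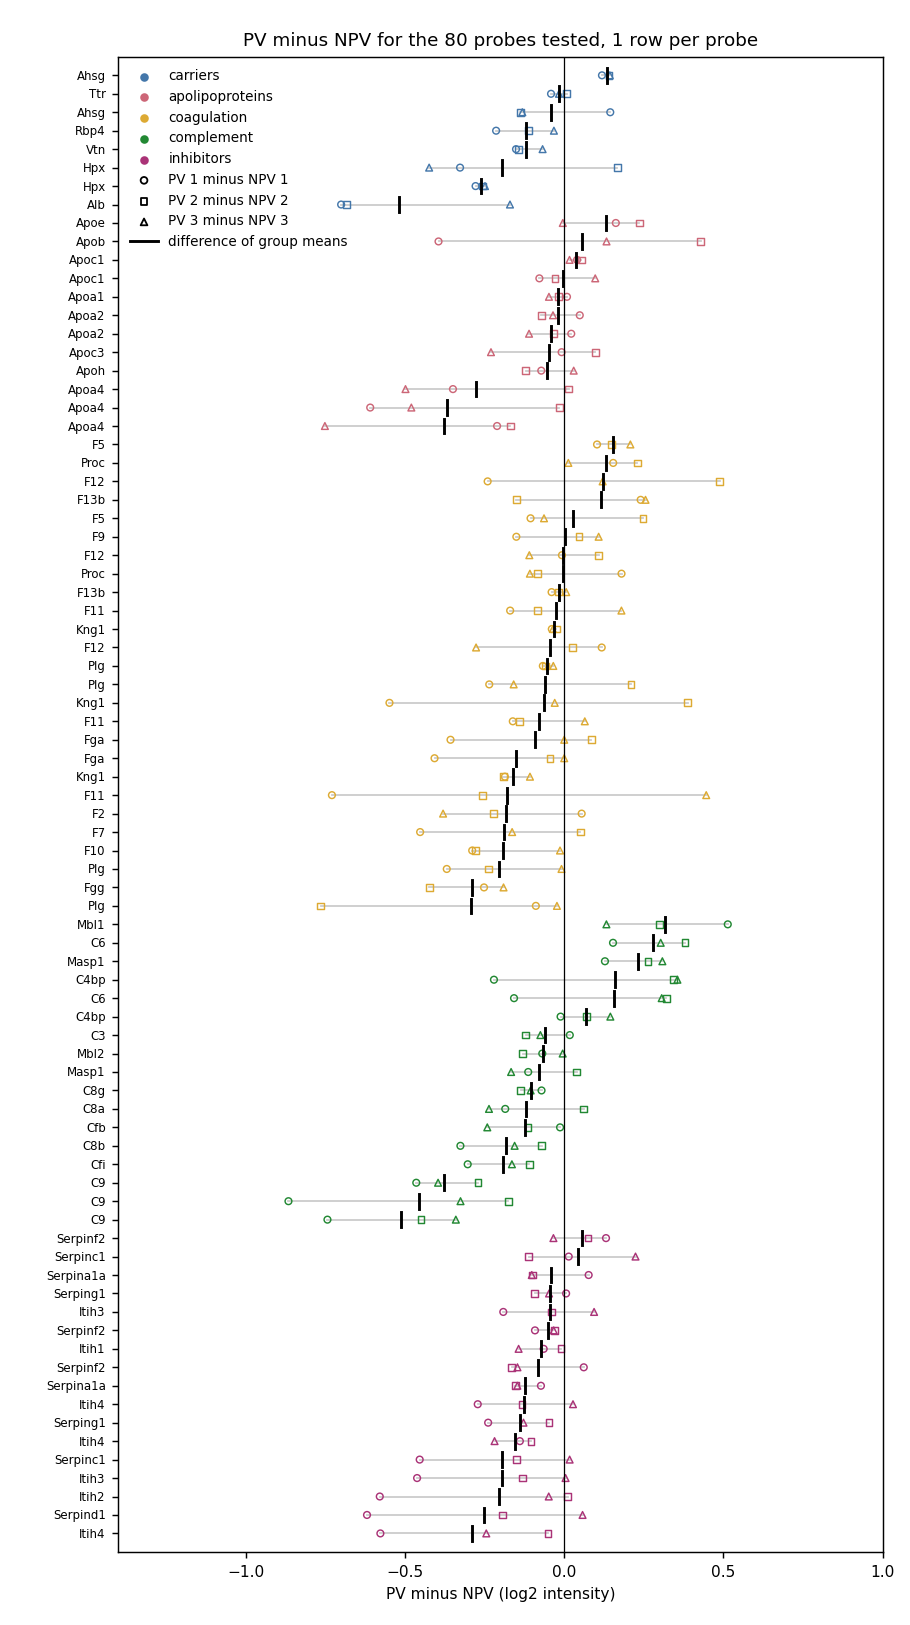
PV minus NPV in log2 intensity for each of the 80 tested probes (rows, labelled by gene, grouped by role), with open symbols for the 3 numbered pairs and a black bar for the difference of group means. Most bars lie within 0.3 of 0 and none beyond -0.52 or 0.32, with the 3 probes of C9 among the lowest and Mbl1 the highest.

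Among the carriers, 7 of 8 probes lay below 0 and the median PV minus NPV was -0.12, or -0.0080 with median scaling (-0.29 relative to all probes there). Alb encodes albumin, the most abundant plasma protein, which binds fatty acids, hormones and drugs. Its only probe on the array was dim, with raw intensities of 258 to 463 on the 9 arrays. On the log2 scale that probe read 8.12, 7.56 and 8.03 in PV, 8.82, 8.24 and 8.20 in NPV and 7.93, 8.56 and 7.78 in SC. Every PV value lay below every NPV value, while SC overlapped both. The difference was -0.52 (SE 0.27, unadjusted p = 0.0900, adjusted p = 1.00 with limma), so the probe did not pass. Hpx encodes hemopexin, which binds free haem. The Hpx probe that stayed below the near-top limit read 14.24, 14.22 and 14.03 in PV, 14.52, 14.48 and 14.27 in NPV and 14.44, 14.48 and 14.08 in SC. PV was below NPV by nearly the same amount in each numbered pair (-0.28, -0.26 and -0.25), and the groups did not overlap. Its mean difference was -0.26 (SE 0.17, adjusted p = 1.00 with limma). The second Hpx probe, near the top on 1 array, went down in the pairs numbered 1 and 3 (-0.33 and -0.42) and up in number 2 (0.17). Ahsg, a fetuin that binds calcium phosphate, was the only carrier with a probe above 0 (0.13, SE 0.14), and its other probe gave -0.04. Rbp4, which carries retinol, and Vtn, the adhesion protein vitronectin, gave -0.12 each (SE 0.15 and 0.16). Ttr, the carrier with the highest mean level, differed by -0.02 (SE 0.13) at signals near the top.

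The apolipoproteins, which hold lipoprotein particles together and direct their uptake, had a median PV minus NPV of -0.030, with 9 of 12 probes below 0, and -0.050 with median scaling (-0.33 relative to all probes there). The 3 probes of Apoa4, an apolipoprotein of chylomicrons and high-density lipoprotein, had the lowest differences of the group, -0.38, -0.37 and -0.28. None of the 3 passed, and their SE without the block was 1.58 to 1.81, because the arrays numbered 3 lay far above the rest, as described below. Apob, the structural protein of very-low-density lipoprotein, differed by 0.06 (SE 0.41), with -0.39, 0.43 and 0.13 in the numbered pairs. Apoe, a ligand of lipoprotein receptors, read 15.02, 14.48 and 14.75 in PV and 14.86, 14.24 and 14.75 in NPV, a difference of 0.13 (SE 0.23). Neither gene kept its groups apart. Apoa1, Apoa2, Apoc1, Apoc3 and Apoh together gave differences from -0.055 (Apoh) to 0.037 (Apoc1), and of these only Apoh was never near the top.

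The coagulation genes had a median PV minus NPV of -0.057, with 20 of 26 probes below 0, which turned to 0.25 with median scaling (-0.033 relative to all probes there). Fgg, the fibrinogen gamma chain, read 14.14, 13.44 and 13.50 in PV, 14.40, 13.86 and 13.69 in NPV and 14.33, 13.90 and 13.83 in SC. Fgg was lower in PV in each numbered pair (-0.25, -0.42 and -0.19), although the groups overlapped (mean -0.29, SE 0.27, adjusted p = 1.00 with limma). The probes of Fga, the fibrinogen alpha chain, gave -0.09 and -0.15 at signals near the top. Plg, which encodes plasminogen, the precursor of the fibrin-dissolving enzyme plasmin, had 4 probes with differences of -0.29, -0.21, -0.06 and -0.05. The first of these read 12.26, 11.24 and 12.62 in PV and 12.35, 12.01 and 12.64 in NPV, and its low mean came from the pair numbered 2 (-0.76). Without the PV array numbered 2 it turned to 0.11. The vitamin K-dependent factors gave -0.18 for F2 (prothrombin), -0.19 for F7, 0.0014 for F9 and -0.19 for F10, and 0.13 and -0.0036 for the probes of Proc, the anticoagulant protein C. F5, a cofactor of prothrombin activation, gave 0.15 and 0.03. The contact-phase genes F11, F12 and Kng1 had 9 probes between -0.18 and 0.12, and F13b, the carrier subunit of the fibrin-crosslinking factor, gave 0.11 and -0.02. No coagulation probe had an unadjusted p under 0.05 without the block. With the block 1 of 26 did, that of Fgg (limma unadjusted p = 0.0384, adjusted p = 0.515). Of all 19425 tested probes, 405 had such a p without the block and 1783 with it.

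The complement genes held the highest difference of the 80 probes, that of Mbl1, and at C9 the lowest after the dim Alb probe. Their median was -0.080, with 11 of 17 probes below 0, and turned to 0.15 with median scaling (-0.14 relative to all probes there). C9, the subunit that forms the ring of the membrane attack complex, was measured by 3 probes. The brightest by mean read 13.50, 13.44 and 13.53 in PV, 14.24, 13.89 and 13.87 in NPV and 14.02, 13.90 and 13.84 in SC. Each PV value lay below all 6 others. The difference from NPV was -0.51 (SE 0.16, unadjusted p = 0.00967, adjusted p = 1.00 with limma, and 0.229 with the block), with -0.74, -0.45 and -0.34 in the numbered pairs. A second bright C9 probe gave -0.38 (SE 0.23) and a dimmer one -0.46 (SE 0.26). All 3 probes were lower in PV in 3 of 3 numbered pairs, and only the first kept the groups apart. The first probe passed under a single alternative, the authors' processed table with the block (adjusted p = 0.0420), and its adjusted p ran from 0.0420 to 1.00 over 22 settings.

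Mbl1, a mannose-binding lectin that starts the lectin pathway, is named here after its values were seen. It read 13.06, 12.87 and 12.84 in PV, 12.55, 12.57 and 12.71 in NPV and 12.85, 12.94 and 12.85 in SC. Each PV value lay above each NPV value, and PV and SC overlapped. The difference of 0.32 (SE 0.14, unadjusted p = 0.0518, adjusted p = 1.00 with limma) did not pass. Mbl2, its relative, differed by -0.07 (SE 0.14). Masp1, the protease that travels with these lectins, gave 0.23 with a dim probe (raw intensity 123 to 265) and -0.08 with a brighter one. C6 of the membrane attack complex gave 0.28 and 0.16, while C8a, C8b and C8g, the chains of the component between C6 and C9, gave -0.12, -0.18 and -0.10. C3, the central component, differed by -0.06 (SE 0.13) at signals near the top on 6 arrays. Cfb and Cfi, an activator and an inhibitor of the alternative pathway, gave -0.12 and -0.19, and C4bp, an inhibitor of the classical pathway, 0.16 and 0.07.

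Of the protease inhibitor probes, 15 of 17 lay below 0, with a median of -0.12 that turned to 0.093 with median scaling (-0.19 relative to all probes there), and no probe lay beyond -0.29 or 0.06. Itih4, a gene of the inter-alpha-trypsin inhibitor heavy chain family, had its largest difference at its dimmest probe. That probe had raw intensities of 2436, 6707 and 9810 in PV and 3465, 4371 and 7512 in NPV (log2 difference after normalization -0.29, SE 0.38). The brighter probes of Itih4 gave -0.13 and -0.15. Serpind1, heparin cofactor II, read 11.73, 11.72 and 12.64 in PV and 12.35, 11.92 and 12.58 in NPV (-0.25, SE 0.32), with -0.62, -0.19 and 0.06 in the numbered pairs. The heavy chains Itih1, Itih2 and Itih3 gave -0.07, -0.21, and -0.20 and -0.05. Serpina1a, the inhibitor of neutrophil elastase, gave -0.04 and -0.12. Serpina1a has near-identical neighbours in the mouse genome, so its probes may also bind their transcripts. Serping1, the inhibitor of complement C1, gave -0.04 and -0.14, and the 3 probes of Serpinf2, the inhibitor of plasmin, ran from -0.08 to 0.06. None of the inhibitor probes had an unadjusted p under 0.05, with or without the block, against 1783 and 405 of all 19425 tested probes.

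The second comparison set PV against the whole scrape, which holds both zones and all other cells. Again 0 of the 80 probes passed, with or without the block, against 0% and 0.0927% of all probes. There was 1 probe with an unadjusted p under 0.05, and 3 with the block, against 220 and 1206 of all probes. The median PV minus SC was -0.073 (all probes -0.0073), with 61 of 80 probes below 0 (76.2%, against 51.8% of all). All 3 numbers were lower in PV for 20 probes (25%, against 12.8% of all probes) and higher for 4 (5%, against 11.2% of all probes). After median scaling the members' median was 0.011 while that of all probes was 0.15, again with the members below the rest, by -0.14. Leaving out 1 array moved the members' median to -0.022 without PV 1, -0.031 without PV 2, -0.11 without PV 3 and -0.035 without SC 3. This comparison shares its PV arrays with the first, so the comparisons are not independent. Red blood cell markers were also lower in PV than in SC, although none of their probes passed, with a median of -0.41 and 13 of 13 tested probes below 0, and summed normalized intensities of 133778 to 285578 in PV against 198837 to 352164 in SC. Cholangiocyte markers had a median of -0.47 here and -0.74 in PV minus NPV, with 4 of 4 tested probes below 0 in both. Their part in these differences was not tested. Role by role the medians of PV minus SC were -0.083 for carriers, -0.044 for apolipoproteins, -0.026 for coagulation, -0.11 for complement and -0.12 for inhibitors, and median scaling turned those of coagulation and complement to 0.12 and 0.047.

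In PV against SC the first C9 probe had the lowest difference, -0.43 (SE 0.16, unadjusted p = 0.0226, adjusted p = 1.00 with limma), and the groups did not overlap. Its other probes gave -0.30 and -0.14. Fgg differed by -0.33 (SE 0.27) and was lower in PV in each numbered pair. F2 read 13.90, 13.08 and 13.12 in PV and 13.78, 13.49 and 13.57 in SC (-0.25, SE 0.25), lower in the pairs numbered 2 and 3 and higher in number 1. Itih2 read 13.58, 14.02 and 14.14 in PV and 14.14, 14.09 and 14.19 in SC (-0.23, SE 0.18). Itih3 gave -0.20 (SE 0.23) with its brighter probe, which read 14.20, 14.52 and 15.00 in PV against 14.64, 14.70 and 14.97 in SC. In both heavy chains most of the difference lay in the pair numbered 1 (-0.57 and -0.44). The highest difference was that of Apob (0.24, SE 0.41), and Mbl1 differed by 0.04 (SE 0.14). All 80 intervals lay within 1 log2 unit of 0 with the block (100%, against 97.7% of all probes), and 71 without it (88.8%, against 80.1% of all probes). For the near-top probes among them the interval again need not bound the difference in RNA.

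The third comparison, NPV against SC, asked how far zones 1+2 differ from the whole tissue. No probe of the 80 passed, and of all tested probes 0% passed with or without the block. At an unadjusted p under 0.05 there were 0 of the 80, and 1 with the block, against 303 and 1312 of all probes. The median was 0.0063, with 42 probes above 0 and 38 below. All 3 numbers were lower in NPV for 9 probes (11.2%, against 14.4% of all probes) and higher for 7 (8.75%, against 13.3% of all probes). With median scaling the members' median was -0.093 and that of all probes -0.13. Leaving out 1 array turned the members' median to -0.028 without NPV 3 and -0.0052 without SC 2, and moved it to 0.012 without NPV 1, 0.053 without NPV 2 and 0.023 without SC 3. Markers of the central vein endothelium had a median of -0.59 (6 of 6 tested probes below 0), pericentral hepatocyte markers -0.52 (11 of 13) and red blood cell markers -0.38 (12 of 13), and their part was not tested. The dimmest F11 probe, for the coagulation factor XI precursor, had the highest difference (0.41, SE 0.54), from 6.71, 6.36 and 6.80 in NPV and 5.69, 5.44 and 7.52 in SC. Its pairs numbered 1 and 2 went up and number 3 went down, and the brighter F11 probes gave 0.05 and less than 0.01 in size. The dimmest probe of Kng1, which encodes the kininogen that releases bradykinin, gave 0.23 (SE 0.28), with raw intensities of 703, 470 and 672 in NPV and 422, 617 and 883 in SC, and its bright probes gave -0.04 and 0.07. Masp1 had the lowest difference with its dim probe, which read 6.59, 6.87 and 6.58 in NPV and 6.80, 7.15 and 6.93 in SC (-0.27, SE 0.18). Mbl1 gave -0.27 (SE 0.14) and its groups did not overlap. Apob gave 0.18 (SE 0.41), from 13.51, 12.74 and 13.88 in NPV and 12.77, 12.90 and 13.91 in SC, and Apoe gave -0.13 (SE 0.23).

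**Figure D3:**
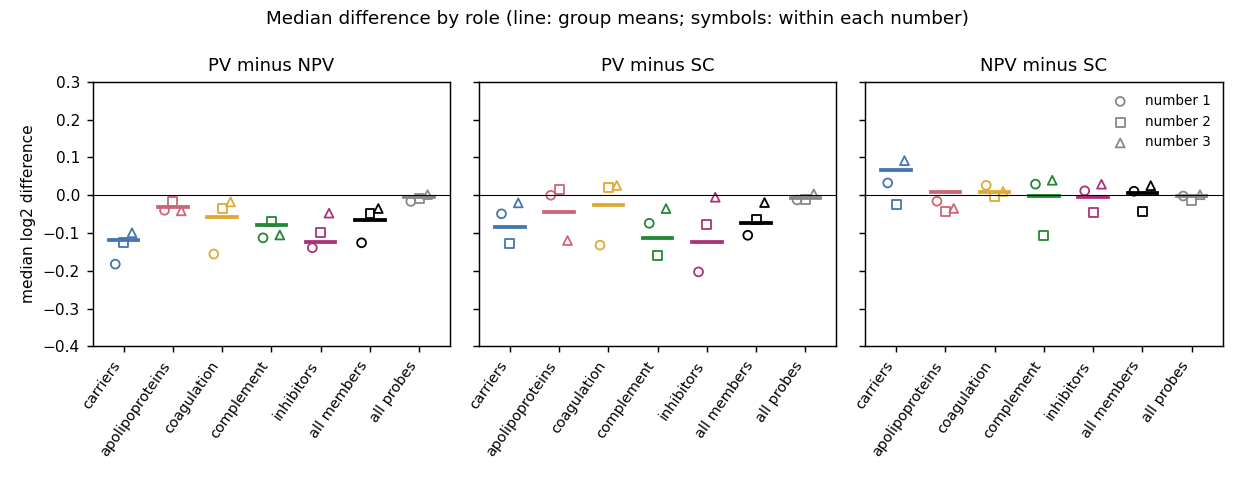
Median log2 difference of the tested probes of each role in the 3 comparisons, with a line for the difference of group means and symbols for the 3 numbered pairs, beside the same for all 80 member probes and all 19425 tested probes. Carriers, complement genes and inhibitors lie between -0.08 and -0.12 in both comparisons with PV, while the lines of NPV minus SC lie within 0.07 of 0 and those of all probes within 0.01 in every comparison. With median scaling, not drawn here, the complement and coagulation medians turn above 0 in both comparisons with PV and the inhibitor median does so in PV minus NPV. The median of all probes then moves to 0.28 in PV minus NPV and 0.15 in PV minus SC, and these role medians stay below it.

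The means of the sample numbers differed more than the means of the groups for most of these probes, as for most of all tested probes. For 72 of the 80 probes (90%) the SD between the 3 numbers was larger than the SD between the 3 groups, as it was for 81.9% of all probes. The arrays numbered 3 all lay above the other 6 for 22 probes (27.5%, against 19.8% of all probes) and all below for 4 (5%, against 16.9% of all probes). Apoa4 was the extreme. Its probe of middle brightness read, as raw intensity, 19865 (PV), 19235 (NPV) and 19871 (SC) on the arrays numbered 3, against 644 and 1231 in PV, 762 and 744 in NPV and 1099 and 764 in SC on the others. On the normalized scale the 3 Apoa4 probes were 16.3, 20.7 and 24.2-fold higher on the arrays numbered 3. All 3 groups showed it, and the 3 probes went together.

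Serpinc1, which encodes antithrombin, the inhibitor of thrombin and factor Xa, went the other way with only part of its probes. The brighter probe read 839 in PV, 485 in NPV and 691 in SC on the arrays numbered 3, against 6042 and 8391 in PV, 5789 and 5766 in NPV and 5748 and 7252 in SC, a normalized log2 difference of -3.71. The dimmer probe read 2083, 1323 and 1286 on the arrays numbered 3, against 803 to 1849 on the others, so it did not set them apart. Apoa2, the second protein of high-density lipoprotein, had 1 probe that was lower there. It read 51177 to 69729 on the other arrays and 22097 to 29553 on those numbered 3, at least 2.66-fold lower on the normalized scale, a lower bound because 3 of the other arrays read over 95% of the highest signal. The second probe read 69304 to 69927 on the arrays numbered 2 and 3, too close to the top to show a difference. The level of Serpinc1 thus depends on the probe in the samples numbered 3, and no probe sequence was examined here. A Plg probe (2.30-fold) and the dimmest F11 probe (2.20-fold) were also higher there by over 1 log2 unit, which 7 of the 80 probes exceeded in either direction (8.75%, against 10.5% of all probes).

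Markers of some other cell types also moved with the sample number, and those of others did not. Summed normalized intensities of 17 Kupffer cell and macrophage probes were 3399 to 6121 on the arrays numbered 3 against 7801 to 10321 on the others, and those of 14 red blood cell probes 132101 to 198837 against 227332 to 352164. Those of 11 central vein endothelium probes were 392 to 680 against 769 to 2565. Hepatocyte sums overlapped (163370 to 172928 against 145302 to 176344). So did those of sinusoidal and general endothelium (7908 to 9634 against 9621 to 12182) and of stellate cells and fibroblasts (13387 to 14371 against 12923 to 20942). Cholangiocyte sums (1116 to 2365 against 2072 to 3243) and lymphocyte sums (203 to 206 against 183 to 237) overlapped too. Whether these shifts bear on Apoa4, Serpinc1 or Apoa2 was not tested. Without the arrays numbered 3, none of the 80 probes passed in any comparison, and the median PV minus NPV was -0.063.

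**Figure D4:**
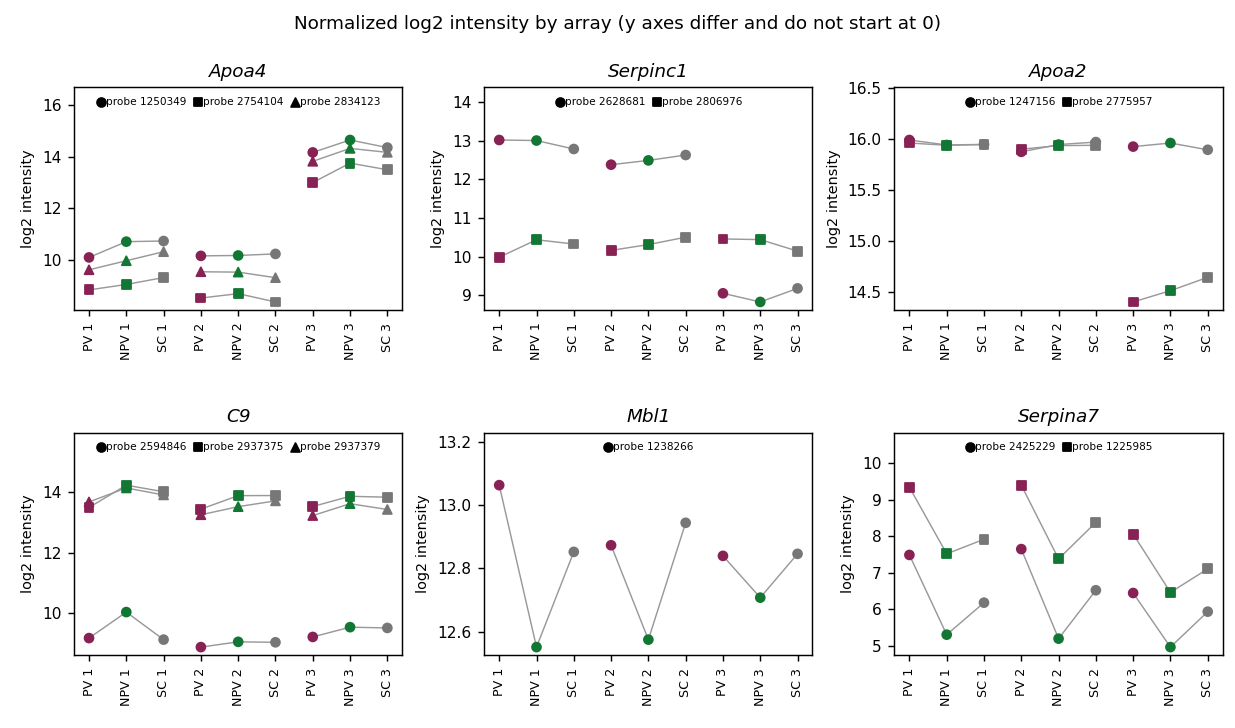
Normalized log2 intensity of every probe of 6 genes on the 9 arrays, ordered by sample number, with PV in purple, NPV in green and SC in grey and lines joining arrays of the same number. The Apoa4 probes lie far higher and a single probe each of Serpinc1 and Apoa2 lower on the arrays numbered 3, while C9 is lower and Mbl1 and Serpina7 higher in PV than in NPV within every number.

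Probes that share a gene symbol can be set side by side within the array, although some, as for Proc, Masp1 and Plg, carry different transcript accessions. Of 23 genes with more than 1 tested probe, all probes had the same sign in 15 genes for PV minus NPV, in 15 for PV minus SC and in 11 for NPV minus SC. The others split in sign, among them Ahsg, Proc and Masp1 between PV and NPV.

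Other genes of the same pathways were counted from a list of 75 symbols, 67 of them on the array and 63 tested with 109 probes. None of the 109 passed in any comparison without the block. With the block 2 passed between PV and NPV, 1 between PV and SC and 0 between NPV and SC, all of them probes of Serpina7. Of all tested probes 0.329%, 0.0927% and 0% passed with the block in these comparisons. Over the 109 probes the median PV minus NPV was -0.10, and 86 (78.9%) lay below 0, against 51% of all probes. The medians of PV minus SC and NPV minus SC were -0.047 and 0.059. With median scaling they turned to 0.18, 0.092 and -0.070, which relative to all probes there were -0.11, -0.057 and 0.064.

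Serpina7, which encodes thyroxine-binding globulin, a non-inhibitory member of the serpin family that carries thyroid hormone, was the plasma protein gene with the lowest p between PV and NPV. Its brighter probe read 9.34, 9.40 and 8.06 in PV, 7.52, 7.38 and 6.46 in NPV and 7.92, 8.38 and 7.11 in SC. The dimmer probe read 7.49, 7.65 and 6.45 in PV, 5.31, 5.20 and 4.97 in NPV and 6.18, 6.52 and 5.94 in SC, and was detected on 1 of the 3 NPV arrays. Both probes placed every PV array above every NPV array, with SC between them in each number. PV minus NPV was 1.81 (SE 0.47, adjusted p = 1.00 with limma, 0.00142 with the block) and 2.04 (SE 0.31, adjusted p = 0.207, 0.00276 with the block). Over 22 settings the limma adjusted p of the brighter probe ran from 5.68e-05 to 1.00, and over 20 settings that of the dimmer probe from 0.000682 to 1.00. PV minus SC was 1.13 (adjusted p = 0.0417 with the block, and 0.00416 to 1.00 over 22 settings) and 0.98 (SE 0.31). The dim NPV level makes the fold of the second probe a rough value. The differences of both probes from NPV were larger than that of any probe of the 48 tested genes. The next lowest p-values belonged to Pon1, Mst1 and Mug2 between PV and NPV, to F8, C4b and Klkb1 between PV and SC, and to Mst1, Mug2 and Cpn2 between NPV and SC, and no probe of these passed with or without the block.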

How the data were processed

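Per the file headers, the authors deposited, for every probe and array, a raw intensity not normalized between arrays and the detection p-value. The submitters' processing notes name BeadStudio 3. A table of processed intensity values, also deposited by the authors, served only as an alternative, and its making is not described in the labels or headers. From the deposited intensity, log2 levels were computed with limma 3.58.1 (R 4.3.3): neqc background correction with an offset of 16, quantile normalization, and a filter of detection p under 0.05 on at least 3 of 9 arrays. A single model of the 3 group means (lmFit, eBayes, 2-sided) gave SE, 95% intervals and Benjamini-Hochberg adjusted p-values over all 19425 probes, with 6 residual degrees of freedom (4 with the sample number as a block). The number of arrays, 3 a group, limits this precision, and the smallest exact permutation p of 3 against 3 is 0.1.

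Sample numbers come from the labels. Arrays of the same number deviated together from their group means (r = 0.57 to 0.875 over 9 pairs, against -0.743 to 0.397 for different numbers). Deviations cancel within a group, which by itself lowers the values for different numbers. Arrays of the same number were taken as pairs for the numbered differences and the block. The main model, which gave the SE and the adjusted p-values without the block, ignored the number. Symbols are those of the file, and 79 of 81 probe accessions carried the same symbol in the RefSeq table while 2 were not listed. Named probes were those past the threshold and, in each role and comparison, the 2 with the largest absolute difference, plus the probe of highest mean level in each role, Glul, and up to 4 other plasma protein genes by the smallest p. Other genes were named for their role or after their values were seen. The genes and lists were chosen with earlier results of these data known.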

Additional observations from a re-analysis of the deposited data

How the results depend on the processing

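The analysis was repeated under 23 other settings. The number of the 80 probes called stayed at 0 in each comparison, apart from 1 (C9, PV against NPV) with the authors' processed table and the replicate block. The replicate block alone, with the sample number as the pairing, called 0 of 80 in each comparison and changed no other call of these genes than those given for Serpina7 and Glul, and the 80 probes' medians (-0.066, -0.073 and 0.0063) are by construction the same with it. The median PV minus NPV was 0.10 with median scaling, -0.18 after subtracting the median of all probes there, -0.14 with cyclic loess, and -0.14 to -0.029 leaving out 1 array in turn, the lowest without NPV 2. Without PV 3 it was -0.12. The median PV minus SC was 0.011 with median scaling, -0.14 relative to all probes there, and -0.11 to -0.022 leaving out 1 array, the highest without PV 1. The median NPV minus SC was -0.093 with median scaling, 0.043 with cyclic loess, and -0.028 to 0.053 leaving out 1 array, the highest without NPV 2. Median scaling relative to all probes, and leaving out the arrays numbered 3 with the block, were chosen after seeing the data.

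Among 54 differences followed by probe, these changed sign. Between PV and NPV, median scaling moved the median of all probes to 0.28. On that scale the lower Plg probe gave 0.039, the dimmest Itih4 probe 0.031, Serpind1 0.069 and the brighter Serpina1a probe 0.011. These values lie above 0 but below the median of all probes, so relative to it they did not reverse. Leaving out 1 array, the range was -1.81 to 1.24 and -1.71 to 1.03 for 2 Apoa4 probes, -0.58 to 0.11 for Plg, -0.045 to 0.024 for Ttr, -0.049 to 0.0086 for Apoa2 and -0.11 to 0.059 for Serpina1a. Between PV and SC, Kng1 gave -0.10 with median scaling and -0.19 with cyclic loess, and without the arrays numbered 3 C3 gave 0.0014 and Serpina1a 0.044, with or without the block. Leaving out 1 array gave -0.34 to 0.046 for Alb, -1.64 to 0.99 and -1.71 to 1.27 for Apoa4, -0.055 to 0.014 for Ttr, -0.037 to 0.021 for Apoa2, -0.071 to 0.011 for C3 and -0.11 to 0.053 for Serpina1a. Between NPV and SC, Ttr gave 0.045 with median scaling and 0.14 with cyclic loess, Serpina1a 0.054 with cyclic loess and 0.056 without the arrays numbered 3, and Apoa2 -0.015 without them. Leaving out 1 array gave -0.067 to 0.54 for Apob, -0.29 to 0.055 for Apoe, -0.014 to 0.49 for Kng1, -0.029 to 0.55 for Itih4, -0.039 to 0.019 for Ttr, -0.0093 to 0.028 for Apoa2 and -0.088 to 0.065 for Serpina1a. The cause was not tested. Precision is limited by 3 arrays a group and, for dim probes, by signal close to background. For the 16 near-top probes the scanner's range may limit a difference, and without them the medians were -0.082, -0.081 and 0.0067.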
